A study of Homo sapiens with 12 samples.

Results

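Ribosome biogenesis genes encode the factors that make, modify and assemble the parts of new ribosomes. The 30 genes described here were taken by name, each for its known role, but with earlier results of these data known. Their counts set against all genes are therefore not independent of these data. They were grouped into RNA polymerase I and III (5 genes), box C/D and H/ACA particles (8), 60S assembly (11) and 40S assembly (6). All 30 were found among the 61806 genes of the LP-1 table and among the 19130 genes of the U266 table. LP-1 and U266 are established human multiple myeloma lines, grown from malignant plasma cells, and both are labelled wild type. They were grown in RPMI-1640 with fetal bovine serum and given dihydroartemisinin (DHA), the active metabolite of the artemisinin antimalarials, at its IC50 or an equal amount of the solvent DMSO. RNA was collected after 12 h from 4 groups of 3 libraries, which are LP-1 with DMSO, LP-1 with DHA, U266 with DMSO and U266 with DHA. The labels do not tell whether the 3 libraries of a group come from separate cultures, and the p-values therefore cover only the spread among these libraries, which may be technical. Values are FPKM, fragments per kilobase of transcript, scaled to the library's depth, and changes are DHA minus DMSO on the log2(FPKM + 1) scale, which understates changes of low genes. The tables of the lines were made differently, so levels were compared within a line, and across lines only the changes were compared. In bulk RNA a change in the make-up of the cells and a change of RNA per cell cannot be told apart.

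Ribosome production starts in the nucleolus, where RNA polymerase I copies the ribosomal DNA into a long precursor RNA, while RNA polymerase III makes the 5S RNA outside it. Small nucleolar RNAs guide the chemical marking of the precursor: box C/D particles add methyl groups to ribose, and H/ACA particles turn uridine into pseudouridine. Assembly factors then fold and cut the precursor and join it to ribosomal proteins, along separate routes to the small 40S and the large 60S subunit. Many of these genes are known targets of the transcription factor MYC, and plasma cells and myeloma cells, which secrete large amounts of antibody, depend on a high output of ribosomes.

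Low FPKM values move in steps of 1 read, which gave a depth of 13.4 to 17.5 M reads for the LP-1 libraries and 10.3 to 21.8 M for the U266 libraries. Of 9 plasma cell markers, 8 reached 1 FPKM in each group; SLAMF7 stayed under it in LP-1 and CD38 in U266. Their summed level was 3890 to 4683 FPKM with DMSO and 3565 to 3817 with DHA in LP-1, and 2203 to 2249 and 1363 to 1505 FPKM in U266. JCHAIN made up most of the sum in LP-1. In U266 it averaged 1176 FPKM with DMSO and 701 with DHA. Single markers went both ways in LP-1, where IRF4 rose from 79.9 ± 14.3 to 253 ± 7.91 FPKM (limma adjusted p = 5.13e-04) and PRDM1 from 24.8 ± 5.99 to 39.5 ± 1.28 FPKM (adjusted p = 0.0236), while SDC1, XBP1, CD38 and MZB1 fell and JCHAIN did not pass (adjusted p = 0.404). Markers of T and NK cells (6 genes) and of monocytes and macrophages (5 genes) stayed under 1 FPKM each in LP-1. In U266 they summed to 1.11 to 1.7 and 0.687 to 0.803 FPKM with DMSO and to 0.58 to 5.25 and 0.624 to 5.46 FPKM with DHA. Both upper ends with DHA were those of replicate 3, where CD3D was at 1.9 and CSF1R at 2.82 FPKM. The 5 erythroid markers summed to at most 0.7 FPKM in LP-1, and in U266 to 10.2 to 11.6 FPKM with DMSO and 6.98 to 7.56 with DHA, nearly all HBB. Stromal and endothelial markers summed to 3.97 to 5.29 FPKM with DMSO and 1.61 to 1.66 with DHA in LP-1, and to 2.84 to 3.44 and 5.26 to 9.04 FPKM in U266. These sums rest on different genes. The LP-1 sum was mostly PECAM1, with means of 4.68 and 1.41 FPKM, which the U266 values lack. In U266 COL3A1 was the highest on average with DMSO and with DHA, with means of 2.08 and 4.38 FPKM. U266 DHA replicate 3 listed 18399 genes above 0, against 14682 to 14992 in the other 5 U266 libraries. In LP-1 the DMSO libraries were more spread than the DHA libraries, and DMSO replicate 3 stood apart. Results are therefore also given without these libraries, and the part of other cell types in the results was not tested.

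By the sign of the change, the members were mostly higher with DHA in LP-1 and mostly lower in U266. In LP-1, 12 of 30 members rose with DHA and 0 fell in the limma fit, while in U266, 22 of 29 tested members fell and 0 rose. Of all genes tested, 20.0% were called higher and 20.2% lower in LP-1 (40.2% in either direction), and 21.1% were called higher and 19.6% lower in U266 (40.7% in either direction). At an unadjusted p under 0.05 limma gave 13 members higher and 1 lower in LP-1, and 0 higher and 24 lower in U266. At the same threshold, 3224 of all 12514 genes tested were higher and 3167 lower in LP-1. In U266, 2622 of 10422 were higher and 2397 lower. The members had a median log2 change of 0.22 in LP-1, against 0.0093 over all genes tested, and of -0.28 in U266, against 0.025. Adding up FPKM over the 30 genes gave 0.376, 0.37 and 0.414% of the LP-1 table with DMSO and 0.477, 0.482 and 0.489% with DHA. In U266 the same sum was 0.611, 0.626 and 0.61% with DMSO and 0.522, 0.515 and 0.502% with DHA. The groups did not overlap in this share in either line. In LP-1 the sum itself did overlap, at 1165, 1136 and 1347 FPKM with DMSO and 1299, 1307 and 1341 FPKM with DHA, while the total of the table was 306658 to 325583 FPKM with DMSO and 271277 to 274111 with DHA. All 3 DHA values lay above all 3 DMSO values for 15 members in LP-1 (30.2% of all genes tested) and below them for 4 (28.6%). In U266 they lay below them for 23 members (23.9% of all genes tested) and above them for 0 (27.6%). These counts moved by over 1.5 times in some alternatives. In LP-1, 5 members were called higher without DHA replicate 1 or 2, 6 without DHA replicate 3, 7 without DMSO replicate 1 or with no filter, and 20 without DMSO replicate 3. In U266, 11 were called lower in the fit of all 12 libraries. Calls over all genes, in either direction, moved as well. In LP-1 they went from 5027 of 12514 to 2783 to 2852 without 1 DHA replicate and to 6745 of 12053 without DMSO replicate 3. In U266 they went from 4241 of 10422 to 2535 of 8868 in the fit of all 12 libraries. NOP2 did not reach 1 FPKM in any U266 library and was not tested there.

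**Figure D1:**
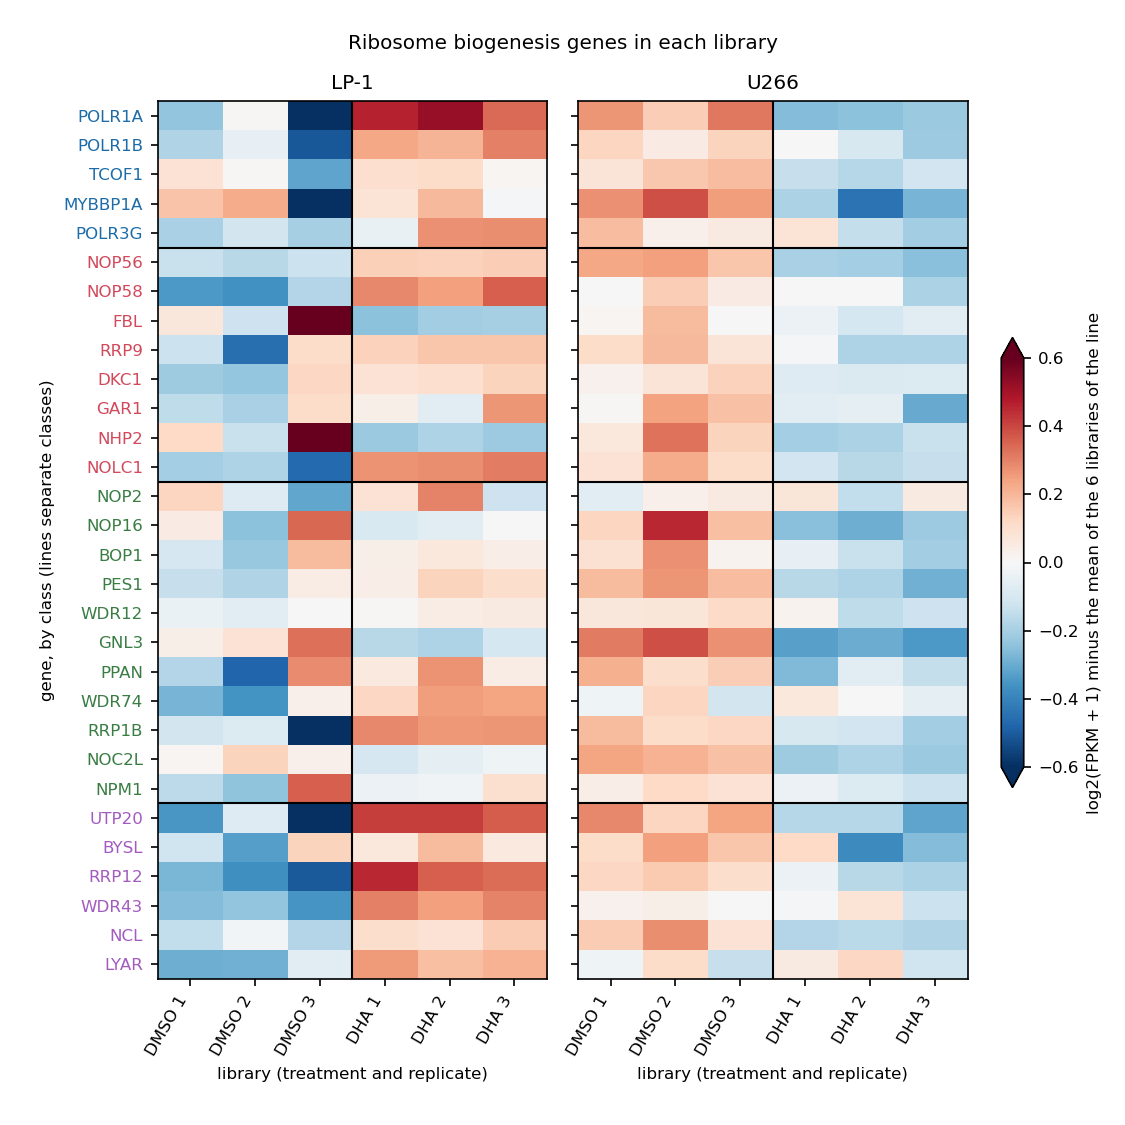
Heat map of the 30 ribosome biogenesis genes (rows, by class) in the 12 libraries (columns), coloured by log2(FPKM + 1) minus the mean of the 6 libraries of that line, with colours ending at 0.6 in both directions. Most rows run from blue to red between DMSO and DHA in LP-1 and from red to blue in U266, and LP-1 DMSO replicate 3 differs from the other DMSO libraries in both directions.

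A test of the difference itself was made in 1 fit of all 12 libraries. The change was higher in LP-1 than in U266 for 22 of 29 members, and lower for 0, where 18.6% of all 8868 genes tested were called higher in LP-1 and 16.1% lower (34.7% in either direction). Without adjustment, at p under 0.05, limma gave 26 members higher and 0 lower, against 2176 higher and 1948 lower of all 8868 genes tested. The median difference between the lines was 0.56 on the log2 scale, against 0.017 over all genes tested. By sign alone, 22 of 29 members had a change above 0 in LP-1 and below 0 in U266 (20.1% of all genes), 5 were below 0 in both lines and 2 above 0 in both. Of these, 7 were called in both lines, higher in LP-1 and lower in U266, against 2.38% of all genes: POLR1A, POLR1B, NOP56, NOLC1, RRP1B, UTP20 and RRP12. No member was called lower in both lines, where the share of all genes was also low (6.06%). All DHA values lay below all DMSO values in both lines for 4 members, FBL, NHP2, GNL3 and NOC2L. No share of all genes was taken for this joint pattern, so the count of 4 is not read as a result about the members. In single lines the share of all genes tested was 28.6% in LP-1 and 23.9% in U266. GNL3 was called lower in both lines once LP-1 DMSO replicate 3 was left out. Of the 22 differences between the lines, 12 were called in every alternative tried: POLR1A, POLR1B, NOP56, NOP58, RRP9, NOLC1, PES1, RRP1B, UTP20, RRP12, WDR43 and NCL. Left out singly, LP-1 DHA replicates 1, 2 and 3 and U266 DMSO replicate 2 each lowered the count from 22 to 14, and leaving out LP-1 DMSO replicate 3 raised it to 27. Over all genes, the differences called in either direction went from 3077 to 2322 to 2590 and to 4147 in these fits. With LP-1 DMSO replicate 3 and U266 DHA replicate 3 both left out, 27 members were called higher in LP-1 and 0 lower, and 4166 of 8681 genes differed.

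**Figure D2:**
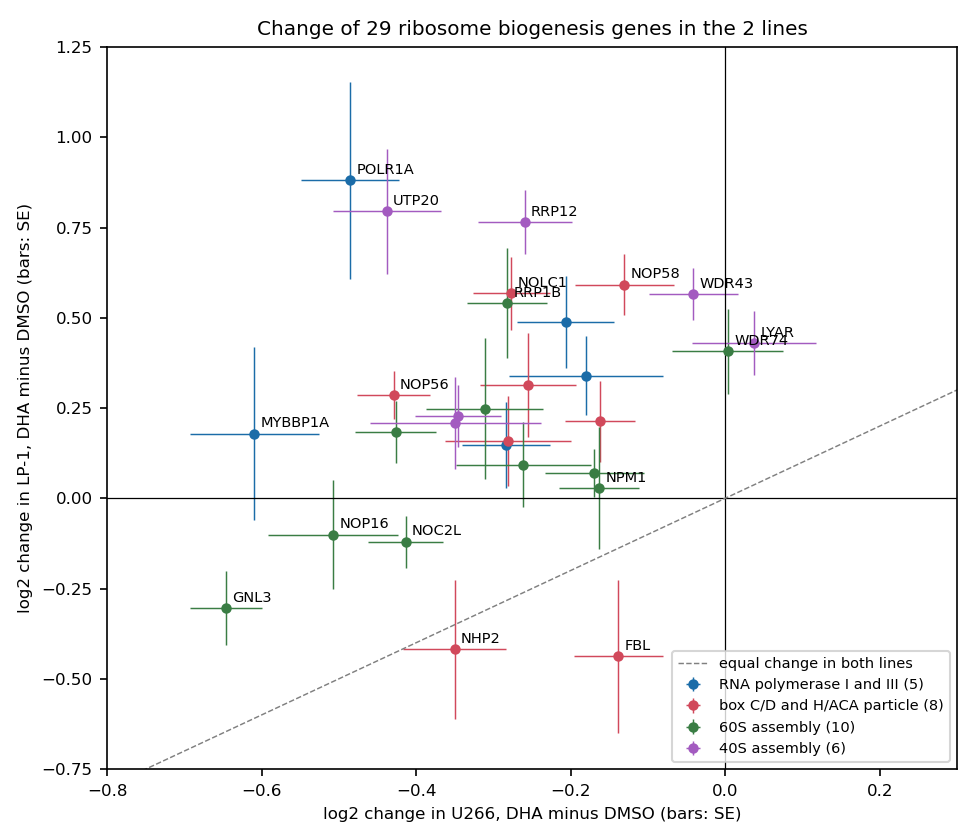
Log2 change with DHA in U266 (x axis) and in LP-1 (y axis) for the 29 members tested in both lines, with standard errors as bars and colours by class. Of the 29 points, 22 lie in the upper left part (above 0 in LP-1, below 0 in U266), and only FBL and NHP2 lie below the dashed line of equal change.

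In the polymerase class 3 of 5 genes rose in LP-1, against 20.0% of all genes, and 4 of 5 fell in U266, against 19.6%. POLR1A (ENSG00000068654, chromosome 2, 86020216 to 86106155 in GRCh38), the catalytic subunit of RNA polymerase I, was at 4.76, 5.82 and 2.2 FPKM in LP-1 DMSO replicates 1 to 3 and at 8.36, 8.76 and 7.59 FPKM with DHA. It rose, with the DMSO library at 2.2 FPKM well under the others and no overlap between the groups (log2 change 0.88 ± 0.27 SE, adjusted p = 0.0425). This was the highest log2 change of the members in LP-1, but without DMSO replicate 3 it was 0.56, below RRP12 (0.70), NOP58 (0.65) and UTP20 (0.61), and by the ratio of mean FPKM UTP20 was higher (2.02 against 1.93). In U266 POLR1A went the other way, from 15.4, 14.1 and 16 to 10.4, 10.5 and 10.7 FPKM (log2 change -0.49 ± 0.06 SE, adjusted p = 1.94e-04). The difference between the lines was 1.37 ± 0.29 (SE, adjusted p = 0.0037), the largest of the 29. POLR1B, the second large subunit, rose in LP-1 from 9.83, 10.8 and 7.62 to 13.4, 13.1 and 14.1 FPKM (log2 change 0.49 ± 0.13 SE, adjusted p = 0.0241). It fell in U266 from 27, 25.4 and 27 to 24.5, 22.9 and 21 FPKM (log2 change -0.21 ± 0.06 SE, adjusted p = 0.0242). Neither gene's groups overlapped in either line.

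Means below are given ± SD over the 3 libraries of a group. TCOF1 encodes treacle, a nucleolar scaffold that supports polymerase I transcription, and MYBBP1A encodes a nucleolar protein that binds MYB and represses polymerase I transcription. Both fell in U266, TCOF1 from 15.3 ± 0.612 to 12.4 ± 0.244 FPKM (log2 change -0.28 ± 0.06 SE, adjusted p = 0.00293) and MYBBP1A from 9.84 ± 0.562 to 6.12 ± 0.628 FPKM (log2 change -0.61 ± 0.08 SE, adjusted p = 2.78e-04). In LP-1 neither passed: TCOF1 was at 12.6, 11.9 and 9.27 FPKM with DMSO and 12.7, 12.8 and 11.9 with DHA, and MYBBP1A at 28.3, 29.3 and 15.4 and 26.6, 28.7 and 24.8 FPKM. For MYBBP1A, DMSO replicates 1 and 2 lay within or above the DHA range and replicate 3 far under it. POLR3G, a subunit of one form of RNA polymerase III that is replaced by its paralog POLR3GL in the other form, was the only polymerase III member. It rose in LP-1 from 5.29, 5.67 and 5.27 to 5.99, 7.72 and 7.75 FPKM (log2 change 0.34 ± 0.11 SE, adjusted p = 0.0489) and did not pass in U266, at 5.56, 4.89 and 4.99 and 5.11, 4.22 and 3.99 FPKM (log2 change -0.18 ± 0.10 SE, adjusted p = 0.182). Of the 5 polymerase genes, 3 rose in LP-1, 4 fell in U266 and all 5 differed between the lines (20.0, 19.6 and 34.7% of all genes). The POLR1A call in LP-1 was lost with a pseudocount of 0.1, with no filter or without DMSO replicate 1 or DHA replicate 1, 2 or 3 (adjusted p = 0.0032 to 0.122 and log2 change 0.56 to 1.10 over 15 alternatives). The POLR1B call in LP-1 was lost with no filter or without DMSO replicate 1 or DHA replicate 1, 2 or 3 (adjusted p = 0.00188 to 0.0887 and log2 change 0.36 to 0.59 over 15 alternatives). The POLR3G call in LP-1 was lost with no filter, with quantile normalization, with no variance trend, with the replicate block or without DMSO replicate 1 or 2 or DHA replicate 2 or 3 (adjusted p = 0.0159 to 0.167 and log2 change 0.29 to 0.45 over 15 alternatives). The POLR1A call in U266 was lost in the fit of all 12 libraries (adjusted p = 6.09e-05 to 0.0964 and log2 change -0.53 to -0.45 over 15 alternatives). The POLR1B call in U266 was lost with no filter, with no variance trend, in the fit of all 12 libraries or without DMSO replicate 1 or 3 or DHA replicate 2 or 3 (adjusted p = 0.011 to 0.163 and log2 change -0.26 to -0.15 over 15 alternatives). The TCOF1 difference between the lines was lost with the exon length trend removed or without LP-1 DHA replicate 1 or 2, U266 DMSO replicate 2 or 3 or U266 DHA replicate 2 (adjusted p = 0.00622 to 0.0677 over 21 alternatives). The MYBBP1A difference between the lines was lost with no filter or without LP-1 DHA replicate 1, 2 or 3, U266 DMSO replicate 1, 2 or 3 or U266 DHA replicate 2 or 3 (adjusted p = 0.00199 to 0.0793 over 21 alternatives). The POLR3G difference between the lines was lost without LP-1 DHA replicate 2 or 3 (adjusted p = 0.00739 to 0.0532 over 20 alternatives).

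Of the 3 core box C/D proteins among the members, NOP56 and NOP58 rose in LP-1 and FBL did not pass. NOP56 (ENSG00000101361, chromosome 20, 2652145 to 2658393) and NOP58 (ENSG00000055044, chromosome 2, 202265716 to 202303666) are the paired scaffold proteins of each box C/D particle, and FBL (ENSG00000105202, chromosome 19, 39834458 to 39846414), fibrillarin, is its methyltransferase. NOP56 was at 48.4, 47.3 and 48.5 FPKM with DMSO and 58.7, 58.6 and 59 FPKM with DHA (log2 change 0.29 ± 0.07 SE, adjusted p = 0.0163). NOP58 was at 44.7, 44.1 and 50.3 and 69.8, 67.8 and 73.4 FPKM (log2 change 0.59 ± 0.08 SE, adjusted p = 0.00295). Both rose with no overlap between the groups. FBL was at 105, 91.3 and 164 FPKM with DMSO and 83.8, 86.2 and 86.7 FPKM with DHA, so that all DHA values lay below all DMSO values, but the DMSO libraries were spread and it did not pass (log2 change -0.44 ± 0.21 SE, adjusted p = 0.142). In U266 NOP56 fell from 38.9, 39.4 and 37.2 to 28.8, 28.6 and 27.6 FPKM (log2 change -0.43 ± 0.05 SE, adjusted p = 6.75e-05). NOP58 and FBL did not pass there, at 54.5 ± 3 and 49.7 ± 3.75 FPKM for NOP58 (log2 change -0.13 ± 0.06 SE, adjusted p = 0.134) and 67.8 ± 5.16 and 61.4 ± 1.55 FPKM for FBL (log2 change -0.14 ± 0.06 SE, adjusted p = 0.0829). For FBL all DHA values lay below all DMSO values in U266 too. The lines differed by 0.72 ± 0.08 for NOP56 (adjusted p = 5.23e-05) and 0.72 ± 0.11 for NOP58 (adjusted p = 5.51e-04), while FBL had a difference of -0.30 ± 0.23 that did not pass (adjusted p = 0.325).

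RRP9, a protein of the U3 particle that directs early cuts of the precursor, did not pass in LP-1, at 21.7, 17.2 and 25.9 FPKM with DMSO and 26.4, 26.9 and 26.9 FPKM with DHA, though all DHA values were higher (log2 change 0.31 ± 0.14 SE, adjusted p = 0.123). It fell in U266 from 25.3, 26.8 and 24.6 to 23.1, 20.4 and 20.4 FPKM (log2 change -0.26 ± 0.06 SE, adjusted p = 0.00855). NOLC1 (Nopp140), a chaperone of both kinds of particle, had the largest difference between the lines in this class. In LP-1 it rose from 98.2, 99.5 and 81.5 to 136, 137 and 140.0 FPKM (log2 change 0.57 ± 0.10 SE, adjusted p = 0.00644), and in U266 it fell from 98.9, 109 and 100.4 to 86, 82.9 and 84.5 FPKM (log2 change -0.28 ± 0.05 SE, adjusted p = 0.00149). The groups did not overlap in either line, and the lines differed by 0.84 ± 0.11 (adjusted p = 2.20e-04).

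The H/ACA members were DKC1, dyskerin, the pseudouridine synthase, and its partners GAR1 and NHP2. All 3 fell in U266. DKC1 went from 66.5, 68.9 and 71.8 to 61.8, 61.5 and 61.6 FPKM (log2 change -0.16 ± 0.05 SE, adjusted p = 0.017), GAR1 from 28.7 ± 2.45 to 23.5 ± 2.34 FPKM (log2 change -0.28 ± 0.08 SE, adjusted p = 0.0194) and NHP2 from 46.9 ± 4.61 to 36.5 ± 0.972 FPKM (log2 change -0.35 ± 0.07 SE, adjusted p = 0.00216). None passed in LP-1. There DKC1 and GAR1 had changes of 0.21 and 0.16 with overlapping groups (adjusted p = 0.17 and 0.338), and NHP2 was at 93.6, 78.2 and 135 FPKM with DMSO and 73.5, 75.4 and 73.8 FPKM with DHA (log2 change -0.42 ± 0.19 SE, adjusted p = 0.127). NHP2 and FBL thus shared a pattern in LP-1, with the highest value in DMSO replicate 3 and the DHA libraries close together below all DMSO libraries. For NHP2 the difference between the lines was -0.07 ± 0.21 (adjusted p = 0.826), which turned to 0.15 without LP-1 DMSO replicate 3. Of its exon bases, 27.4% lie over RMND5B on the other strand, and no source used here gives the strand setting of the counting, so reads of the pair cannot be told apart. Overlaps on the other strand also cover part of WDR74 (22.3% shared in all) and NOP16 (20.0%). Of the 8 particle genes, 3 rose in LP-1, 6 fell in U266 and 6 differed between the lines (20.0, 19.6 and 34.7% of all genes). The NOP56 call in LP-1 was lost with the replicate block or without DMSO replicate 1 or DHA replicate 1, 2 or 3 (adjusted p = 9.19e-04 to 0.0856 and log2 change 0.24 to 0.36 over 15 alternatives). FBL passed in LP-1 with quantile normalization, in the fit of all 12 libraries or without DMSO replicate 2 (adjusted p = 0.0349 to 0.276 and log2 change -0.61 to -0.19 over 15 alternatives). NHP2 passed in LP-1 with quantile normalization, in the fit of all 12 libraries or without DMSO replicate 2 (adjusted p = 0.0316 to 0.253 and log2 change -0.59 to -0.19 over 15 alternatives). RRP9 passed in LP-1 with the exon length trend removed, in the fit of all 12 libraries or without DMSO replicate 3 (adjusted p = 0.00277 to 0.253 and log2 change 0.17 to 0.54 over 15 alternatives). DKC1 passed in LP-1 with quantile normalization or without DMSO replicate 3 (adjusted p = 0.0013 to 0.381 and log2 change 0.15 to 0.33 over 15 alternatives). GAR1 passed in LP-1 with the exon length trend removed (adjusted p = 0.0212 to 0.723 and log2 change 0.07 to 0.35 over 15 alternatives). The DKC1 call in U266 was lost with quantile normalization, with no variance trend, in the fit of all 12 libraries or without DMSO replicate 3 or DHA replicate 2 (adjusted p = 0.0127 to 0.374 and log2 change -0.19 to -0.05 over 15 alternatives). The GAR1 call in U266 was lost with no filter, with no variance trend, in the fit of all 12 libraries or without DMSO replicate 2 or 3 (adjusted p = 0.00946 to 0.0827 and log2 change -0.35 to -0.20 over 15 alternatives). The NHP2 call in U266 was lost in the fit of all 12 libraries (adjusted p = 7.12e-04 to 0.103 and log2 change -0.41 to -0.27 over 15 alternatives). The RRP9 call in U266 was lost in the fit of all 12 libraries (adjusted p = 0.00325 to 0.117 and log2 change -0.31 to -0.19 over 15 alternatives). The DKC1 difference between the lines was lost without LP-1 DMSO replicate 1, LP-1 DHA replicate 1, 2 or 3, U266 DMSO replicate 2 or 3 or U266 DHA replicate 1, 2 or 3 (adjusted p = 3.96e-05 to 0.0797 over 21 alternatives). The GAR1 difference between the lines was lost with a pseudocount of 0.1, with no filter, with TMM-style scaling, with no variance trend or without LP-1 DMSO replicate 1 or 2, LP-1 DHA replicate 1 or 3, U266 DMSO replicate 2 or 3 or U266 DHA replicate 1, 2 or 3 (adjusted p = 0.00332 to 0.12 over 21 alternatives).

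**Figure D3:**
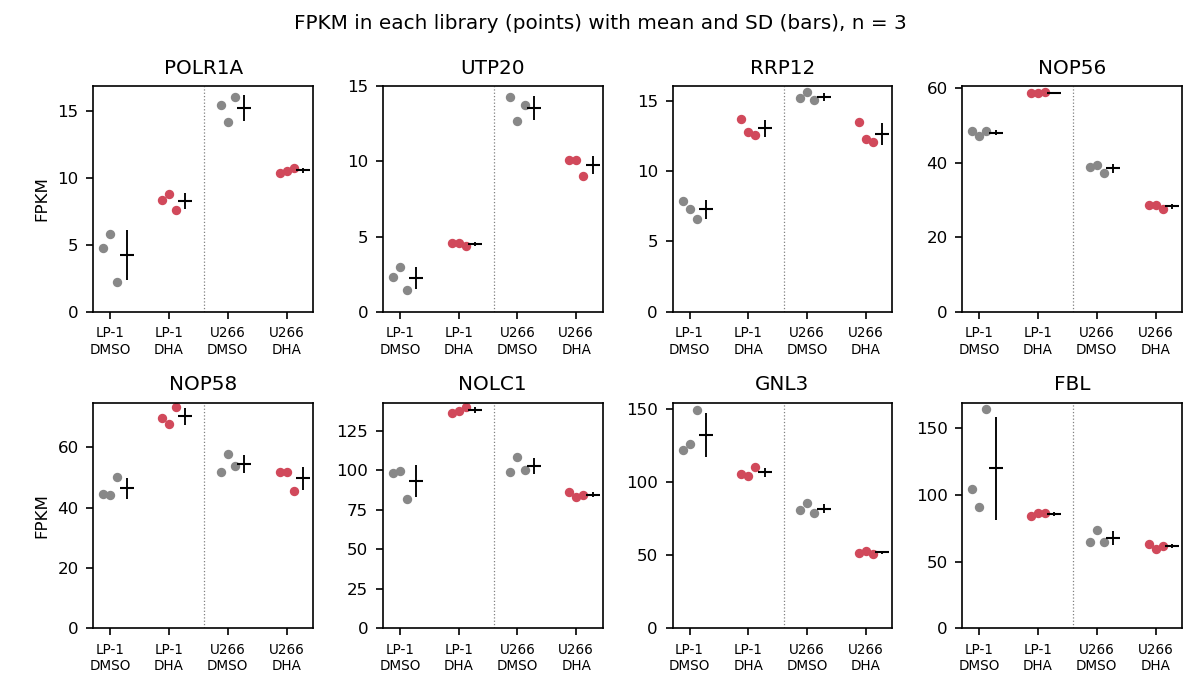
FPKM of 8 members in each library (points, grey for DMSO and red for DHA) with the mean and SD of the 3 libraries beside them, on linear axes from 0. POLR1A, UTP20, RRP12, NOP56 and NOLC1 sit higher with DHA in LP-1 and lower with DHA in U266, GNL3 sits lower with DHA in both lines, and the tables of the lines were made differently, so heights are to be compared within a line.

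In the 60S class 8 of 10 tested genes fell in U266, where 19.6% of all genes were called lower, and 2 of 11 rose in LP-1, a share near the 20.0% of all genes called higher there. GNL3 (nucleostemin, ENSG00000163938, chromosome 3, 52681156 to 52694492), a nucleolar GTPase of stem and cancer cells, was among the members that fell most. It went from 81, 85.3 and 79 to 51.7, 52.7 and 51.1 FPKM in U266 (log2 change -0.65 ± 0.05 SE, adjusted p = 3.84e-06), the lowest value of the members on this scale, while by the ratio of mean FPKM MYBBP1A was lower (0.622 against 0.634 for GNL3). In LP-1 it was at 121, 126 and 149 and 105, 104 and 110.0 FPKM, with all DHA values lower, and narrowly missed the threshold (log2 change -0.30 ± 0.10 SE, adjusted p = 0.0557). GNL3 was thus lower with DHA in each line by its values, and the change was lower in U266, with a difference of 0.34 ± 0.11 (adjusted p = 0.0327). NOP16, an early 60S factor, fell in U266, from 14.7 ± 1.93 to 9.98 ± 0.293 FPKM (log2 change -0.51 ± 0.08 SE, adjusted p = 9.54e-04), and did not pass in LP-1, at 22.7 ± 4.83 and 20.8 ± 0.723 FPKM (adjusted p = 0.615). NOC2L, an inhibitor of histone acetyltransferases whose yeast counterpart exports 60S precursors, fell from 25.2 ± 0.575 to 18.7 ± 0.289 FPKM in U266 (log2 change -0.41 ± 0.05 SE, adjusted p = 1.02e-04). In LP-1 NOC2L was at 25.3 ± 1.19 and 23.2 ± 0.652 FPKM, with all DHA values lower, and did not pass (adjusted p = 0.223).

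PES1, BOP1 and WDR12 form the PeBoW complex, which acts in 60S maturation. In U266 PES1 fell from 34.4, 36.2 and 34.2 to 26.6, 26.2 and 24.4 FPKM (log2 change -0.43 ± 0.05 SE, adjusted p = 1.35e-04) and BOP1 from 7.09, 8.18 and 6.7 to 6.33, 5.9 and 5.56 FPKM (log2 change -0.26 ± 0.09 SE, adjusted p = 0.0364). WDR12 was at 13.3, 13.3 and 13.7 and 12.8, 11.3 and 11.5 FPKM there, with all DHA values lower, and did not pass (log2 change -0.17 ± 0.06 SE, adjusted p = 0.0593). In LP-1 none of the 3 passed, with log2 changes of 0.18, 0.09 and 0.07 (adjusted p = 0.132, 0.55 and 0.432). Within the complex, only PES1 differed between the lines by test (0.61 ± 0.10, adjusted p = 8.79e-04), with BOP1 at 0.35 (adjusted p = 0.077) and WDR12 at 0.24 (adjusted p = 0.0589).

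RRP1B, a nucleolar factor of late 60S steps, was 1 of 2 genes of this class that rose in LP-1, from 19.8, 20.2 and 13.6 to 26.4, 25.9 and 25.9 FPKM (log2 change 0.54 ± 0.15 SE, adjusted p = 0.0312). In U266 it fell from 38.6, 36.4 and 36.8 to 31.4, 31 and 29 FPKM (log2 change -0.28 ± 0.05 SE, adjusted p = 0.00163). The other was WDR74, which acts with the AAA ATPase NVL, from 19.1, 18.1 and 24 to 25.6, 28.1 and 27.8 FPKM (log2 change 0.41 ± 0.12 SE, adjusted p = 0.0341). In U266 WDR74 was the member that moved least, at 13.5, 15.1 and 12.7 and 14.4, 13.7 and 13.2 FPKM (log2 change 0.0034 ± 0.07 SE, adjusted p = 0.975). NPM1, nucleophosmin, an abundant nucleolar chaperone, was at 125, 118 and 179 FPKM in LP-1 with DMSO and 136, 138 and 149 FPKM once DHA was given, which did not pass (log2 change 0.03 ± 0.17 SE, adjusted p = 0.904). In U266 NPM1 fell from 370.1, 391 and 383 to 352, 340.5 and 329 FPKM (log2 change -0.16 ± 0.05 SE, adjusted p = 0.029), a small change of a very abundant transcript. NPM1 has many processed pseudogenes, so its level is uncertain.

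PPAN and NOP2 overlap other annotated genes on the same strand, PPAN mostly PPAN-P2RY11 and NOP2 AC006064.6, over 59.8 and 54.4% of their exon bases, and reads could be split or dropped there. PPAN, a 60S factor of the Brix family, fell in U266 from 8.96 ± 0.374 to 7.04 ± 0.557 FPKM (log2 change -0.31 ± 0.08 SE, adjusted p = 0.00811) and did not pass in LP-1, at 5.13 ± 1.66 and 6.13 ± 0.633 FPKM (adjusted p = 0.342). NOP2, an RNA methyltransferase of the large subunit RNA, was the lowest member in both lines. It was at 1.83, 1.45 and 1.08 FPKM in LP-1 with DMSO and at 1.75, 2.18 and 1.37 FPKM with DHA (log2 change 0.17 ± 0.16 SE, adjusted p = 0.419). In U266 it was at 0.135, 0.215 and 0.235 FPKM with DMSO and 0.248, 0.0741 and 0.234 FPKM with DHA, which recovered depth puts at 5 to 22 reads a library. The RRP1B call in LP-1 was lost with no filter or without DHA replicate 1, 2 or 3 (adjusted p = 8.68e-04 to 0.0979 and log2 change 0.37 to 0.63 over 15 alternatives). The WDR74 call in LP-1 was lost with no filter, with TMM-style scaling or without DMSO replicate 1 or 2 or DHA replicate 1, 2 or 3 (adjusted p = 7.22e-04 to 0.118 and log2 change 0.33 to 0.52 over 15 alternatives). GNL3 passed in LP-1 in the fit of all 12 libraries or without DMSO replicate 3 (adjusted p = 0.00622 to 0.179 and log2 change -0.36 to -0.17 over 15 alternatives). PES1 passed in LP-1 with quantile normalization, in the fit of all 12 libraries or without DMSO replicate 3 (adjusted p = 0.00622 to 0.328 and log2 change 0.14 to 0.25 over 15 alternatives). The BOP1 call in U266 was lost with no filter, in the fit of all 12 libraries or without DMSO replicate 1 or 2 or DHA replicate 2 or 3 (adjusted p = 0.0194 to 0.148 and log2 change -0.33 to -0.19 over 15 alternatives). The NPM1 call in U266 was lost with no filter, with quantile normalization, with no variance trend, with the replicate block, in the fit of all 12 libraries or without DMSO replicate 2 or 3 or DHA replicate 2 (adjusted p = 0.0249 to 0.502 and log2 change -0.19 to -0.03 over 15 alternatives). The PPAN call in U266 was lost in the fit of all 12 libraries (adjusted p = 0.00307 to 0.146 and log2 change -0.37 to -0.26 over 15 alternatives). The RRP1B call in U266 was lost in the fit of all 12 libraries (adjusted p = 7.38e-04 to 0.09 and log2 change -0.32 to -0.24 over 15 alternatives). WDR12 passed in U266 with TMM-style scaling, with quantile normalization, with the exon length trend removed or without DHA replicate 1 (adjusted p = 0.0228 to 0.172 and log2 change -0.22 to -0.14 over 15 alternatives). The GNL3 difference between the lines was lost with TMM-style scaling or without LP-1 DMSO replicate 1, LP-1 DHA replicate 1, 2 or 3, U266 DMSO replicate 1 or 2 or U266 DHA replicate 1, 2 or 3 (adjusted p = 1.72e-04 to 0.0778 over 21 alternatives). The WDR74 difference between the lines was lost with no filter, with TMM-style scaling or without LP-1 DMSO replicate 1 or 2, LP-1 DHA replicate 1, 2 or 3, U266 DMSO replicate 1 or 2 or U266 DHA replicate 1, 2 or 3 (adjusted p = 7.35e-04 to 0.104 over 21 alternatives). The NOC2L difference between the lines was lost with the replicate block (adjusted p = 0.00611 to 0.0534 over 21 alternatives). Among the other 60S genes, the difference between the lines was 0.56 for PPAN (adjusted p = 0.0599), 0.41 for NOP16 (adjusted p = 0.0966) and 0.19 for NPM1 (adjusted p = 0.434), and none of these passed. Without LP-1 DMSO replicate 3, the PPAN, NOP16, NPM1, BOP1 and WDR12 differences passed as well.

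All 6 genes of the 40S class differed between the lines, against 34.7% of all genes, and 4 of them rose in LP-1, against 20.0%. UTP20 (ENSG00000120800, chromosome 12, 101280109 to 101386616), a large factor of the 40S precursor, was at 2.29, 2.97 and 1.47 FPKM in LP-1 with DMSO and 4.59, 4.59 and 4.39 FPKM with DHA (log2 change 0.79 ± 0.17 SE, adjusted p = 0.0132). It fell in U266 from 14.3, 12.7 and 13.7 to 10.1, 10.1 and 9.04 FPKM (log2 change -0.44 ± 0.07 SE, adjusted p = 7.30e-04). The groups did not overlap in either line and the difference was 1.23 ± 0.19 (adjusted p = 5.64e-04). RRP12 (ENSG00000052749, chromosome 10, 97356358 to 97426076), which acts in export of precursor subunits, had the lowest adjusted p of all members in LP-1. It rose there from 7.91, 7.34 and 6.58 to 13.7, 12.8 and 12.6 FPKM (log2 change 0.76 ± 0.09 SE, adjusted p = 0.00139) and fell in U266 from 15.2, 15.6 and 15 to 13.5, 12.3 and 12.1 FPKM (log2 change -0.26 ± 0.06 SE, adjusted p = 0.007). Its difference between the lines, 1.02 ± 0.11, also had the lowest adjusted p of the members (4.09e-05).

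WDR43 and LYAR rose in LP-1 and did not pass in U266. WDR43, which links polymerase I transcription to early 40S steps, went from 37.4, 38 and 34.9 to 55.6, 53.5 and 55.5 FPKM in LP-1 (log2 change 0.57 ± 0.07 SE, adjusted p = 0.00201) and was at 50.5, 50.8 and 49.6 and 49.1, 52.5 and 45.1 FPKM in U266 (log2 change -0.04 ± 0.06 SE, adjusted p = 0.603). LYAR, a zinc finger protein of the nucleolus, went from 18.5, 18.5 and 21.8 to 27.4, 26 and 26.5 FPKM in LP-1 (log2 change 0.43 ± 0.09 SE, adjusted p = 0.0104) and was at 18.5, 20.3 and 17 and 19.5, 20.5 and 17.2 FPKM in U266 (log2 change 0.04 ± 0.08 SE, adjusted p = 0.746). The reverse held for NCL and BYSL, which fell in U266 and did not pass in LP-1. NCL, nucleolin, an abundant RNA-binding protein placed in this class for its part in the first cut of the precursor, fell from 187, 204 and 179 to 149, 150.1 and 148 FPKM (log2 change -0.35 ± 0.06 SE, adjusted p = 7.44e-04). In LP-1 NCL was at 156, 171 and 153 and 186, 184 and 192 FPKM, with all DHA values higher (log2 change 0.23 ± 0.09 SE, adjusted p = 0.0752). BYSL, bystin, a late 40S factor, fell in U266 from 17.5, 19.3 and 18.2 to 17.5, 12.1 and 13.3 FPKM, where DHA replicate 1 lay within the DMSO range (log2 change -0.35 ± 0.11 SE, adjusted p = 0.028), and was at 18.2 ± 3.11 and 21 ± 1.12 FPKM in LP-1 (log2 change 0.21 ± 0.13 SE, adjusted p = 0.23). The UTP20 call in LP-1 was lost without DHA replicate 1 or 2 (adjusted p = 4.06e-04 to 0.0523 and log2 change 0.59 to 1.03 over 14 alternatives). The LYAR call in LP-1 was lost without DHA replicate 1 (adjusted p = 3.36e-04 to 0.0555 and log2 change 0.39 to 0.60 over 15 alternatives). NCL passed in LP-1 in the fit of all 12 libraries or without DMSO replicate 2 or 3 (adjusted p = 0.0183 to 0.227 and log2 change 0.13 to 0.42 over 15 alternatives). BYSL passed in LP-1 with the exon length trend removed or without DMSO replicate 3 (adjusted p = 0.00809 to 0.49 and log2 change 0.10 to 0.38 over 15 alternatives). The BYSL call in U266 was lost with no filter, with no variance trend, in the fit of all 12 libraries or without DMSO replicate 2 or 3 or DHA replicate 2 or 3 (adjusted p = 7.14e-04 to 0.121 and log2 change -0.50 to -0.25 over 15 alternatives). The BYSL difference between the lines was lost with no filter, with the replicate block or without LP-1 DMSO replicate 1 or 2, LP-1 DHA replicate 1, 2 or 3, U266 DMSO replicate 1, 2 or 3 or U266 DHA replicate 2 or 3 (adjusted p = 0.00258 to 0.0868 over 21 alternatives). The LYAR difference between the lines was lost without LP-1 DMSO replicate 1, LP-1 DHA replicate 1, 2 or 3, U266 DMSO replicate 1 or 2 or U266 DHA replicate 3 (adjusted p = 0.00217 to 0.078 over 21 alternatives).

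One control library weighed on the LP-1 values. LP-1 DMSO replicate 3 minus the mean of replicates 1 and 2 was, on the log2 scale, -0.97 for POLR1A, -0.36 for TCOF1 and -0.55 for UTP20, the 3 members with the longest exons, and 0.65 for NHP2, 0.40 for RRP9 and 0.28 for GAR1, the 3 with the shortest. Among the next longest, WDR12 (0.06), RRP12 (-0.19) and NCL (-0.10) were nearer to 0, while MYBBP1A was at -0.86. Across the 30 members the correlation of this deviation with log2 exon length was -0.78, and across 12270 tested genes with an annotated length it was -0.22, where genes share the library and are not independent. The DHA change in LP-1 had a correlation with log2 exon length of 0.49 over the 30 members, and of 0.18 without this library. In U266 the correlation of the change with log2 exon length was -0.21 over 29 members. Without LP-1 DMSO replicate 3, the count in LP-1 rose from 12 to 20 members higher and from 0 to 1 lower, with a median of 0.31. Over all genes, calls in either direction also rose without this library, from 5027 of 12514 to 6745 of 12053. Newly called higher without it were RRP9 (0.45, adjusted p = 0.00796), DKC1 (0.33, adjusted p = 0.0013), BOP1 (0.21, adjusted p = 0.0169), PES1 (0.25, adjusted p = 0.00622), PPAN (0.45, adjusted p = 0.0167), NPM1 (0.21, adjusted p = 0.0244), BYSL (0.33, adjusted p = 0.0138) and NCL (0.20, adjusted p = 0.0288). The 1 newly called lower was GNL3 (-0.21, adjusted p = 0.0113). POLR1A kept its call at 0.56, while MYBBP1A turned to -0.11 and did not pass. With the trend on exon length taken out of each library, 15 members were called higher and 0 lower in LP-1. Over all genes, 5592 of 12514 were then called in either direction, 50.6% of them higher. Without U266 DHA replicate 3, 19 members were called lower and 0 higher in U266. There, 4294 of all 10203 genes were called in either direction, 50.1% of them higher.

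**Figure D4:**
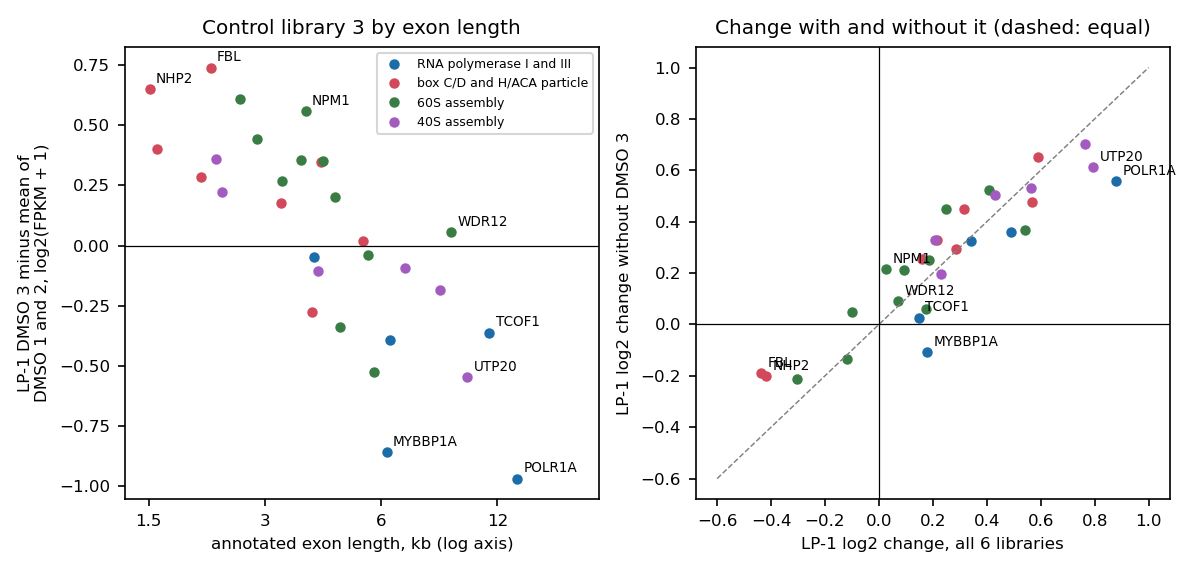
Left, LP-1 DMSO replicate 3 minus the mean of DMSO replicates 1 and 2, in log2(FPKM + 1), against annotated exon length (log axis) for the 30 members. Right, the log2 change with DHA in LP-1 with all 6 libraries (x axis) and without that library (y axis). Members near the dashed line had changes of similar size with and without that library, though not always the same call. POLR1A and MYBBP1A lie below the dashed line, while FBL and NHP2 lie above it.

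In levels per length, the members spanned a wide range. In LP-1 with DMSO the most abundant were NCL at 160.0 ± 9.75, NPM1 at 141 ± 33.7, GNL3 at 132 ± 15, FBL at 120.0 ± 38.7 and NHP2 at 102 ± 29.3 FPKM, and neighbours in this order overlapped within their spread. With DHA the order in LP-1 was NCL, NPM1, NOLC1, GNL3 and FBL, in which NOLC1 at 138 ± 1.88 FPKM overlapped NPM1 at 141 ± 7.11 FPKM and lay above GNL3 at 107 ± 3.07 FPKM in all 3 libraries. In U266 with DMSO NPM1 led at 381 ± 10.5 FPKM, above NCL at 189.9 ± 13.1 and NOLC1 at 103 ± 5.26 FPKM without overlap. NPM1, NCL and NOLC1 kept this order in U266 with DHA. At the low end, besides NOP2, stood UTP20, POLR1A, PPAN and POLR3G in LP-1 with DMSO, and POLR3G, BOP1, PPAN and MYBBP1A in U266 with DMSO.

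In a wider list of 153 other genes of the pathway, also chosen with earlier results known, most calls were higher in LP-1 and lower in U266. In LP-1, 57 of 151 tested rose and 6 fell, and in U266, 13 rose and 55 fell, where 20.0% of all genes tested were called higher and 20.2% lower in LP-1 and 21.1% and 19.6% in U266. The counts by class below stand against the same shares. Their median log2 change was 0.24 in LP-1 and -0.12 in U266. The change was higher in LP-1 by test for 67 of 150 (18.6% of all genes) and lower for 5 (16.1%). Of the 150, 15 were called in both lines as higher in LP-1 and lower in U266 (2.38% of all genes). Another 2 were called lower in both (6.06%) and 8 higher in both, for which no share of all genes was taken. By sign, 68 were above 0 in LP-1 and below 0 in U266 (20.1% of all genes). A further 48 were above 0 in both and 25 below 0 in both. The calls in the 2 lines were thus mostly of different genes. Of the 52 tested 40S genes, 25 rose and 1 fell in LP-1, and 3 rose and 25 fell in U266. Of the 54 tested 60S genes, 21 rose and 2 fell in LP-1, and 6 rose and 17 fell in U266. In the 40S group the RNA helicase DDX49 had the largest rise in LP-1, from 9.23 ± 1.01 to 19.9 ± 1.02 FPKM (adjusted p = 7.17e-04), and was at 28.4 ± 0.771 and 28 ± 0.69 FPKM in U266 (adjusted p = 0.78). The helicase DHX37 had the largest fall in U266, from 14.5 ± 1.03 to 7.71 ± 0.532 FPKM (adjusted p = 1.70e-05). Some genes moved the same way in both lines. UTP3 fell, from 139 ± 21.1 to 73.3 ± 2.4 FPKM in LP-1 (adjusted p = 0.00224) and from 41.7 ± 1.27 to 23.5 ± 1.44 FPKM in U266 (adjusted p = 3.06e-06). The kinase gene RIOK3 rose in both, with log2 changes of 0.74 (adjusted p = 5.69e-04) and 0.62 (adjusted p = 2.53e-05).

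In the 60S group the AAA ATPase NVL, the partner of WDR74, rose in LP-1 from 7.61 ± 0.335 to 13.8 ± 0.265 FPKM (adjusted p = 6.29e-04) and was at 9.86 ± 0.832 and 10.1 ± 0.21 FPKM in U266 (adjusted p = 0.738). The pair WDR74 and NVL thus rose in LP-1 and did not pass in U266. GNL3L, a paralog of GNL3, had the largest fall in U266, from 67.1 ± 1.66 to 43.9 ± 0.798 FPKM (adjusted p = 4.42e-06). NOP53 fell in LP-1 (log2 change -0.66, adjusted p = 0.0111), and RSL24D1 rose in U266 (0.62, adjusted p = 2.07e-05).

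Of 13 other polymerase I genes, 1 rose and 1 fell in LP-1, and 1 rose and 2 fell in U266. RRN3, the initiation factor that binds polymerase I, rose in both lines, with log2 changes of 0.38 and 0.26 (adjusted p = 0.00958 and 0.0112). The subunit gene POLR1G fell in LP-1 (-0.71, adjusted p = 0.00336) and the promoter factor UBTF fell in U266 (-0.34, adjusted p = 0.00679). Of 21 other polymerase III genes, 9 rose and 1 fell in LP-1, and 2 rose and 6 fell in U266. POLR3C rose in both lines, by 1.17 and 0.52 (adjusted p = 2.69e-04 and 9.65e-06), and POLR3K fell in U266 (-0.59, adjusted p = 0.0119). POLR3GL, the alternative to the member POLR3G, was at 32.9, 30.3 and 46.1 FPKM in LP-1 with DMSO and at 14.2, 16.6 and 18.2 FPKM with DHA, a fall (log2 change -1.10 ± 0.17 SE, adjusted p = 0.0042). POLR3G and POLR3GL thus moved in opposite directions in LP-1. In U266 POLR3GL was at 8.78, 7.58 and 6.28 and 8.72, 8.15 and 7.08 FPKM (adjusted p = 0.619), and the lines differed by -1.18 (adjusted p = 0.00184). Of 11 other particle genes, 1 rose and 1 fell in LP-1, and 1 rose and 5 fell in U266. NOP10, the fourth core H/ACA protein beside DKC1, GAR1 and NHP2, fell in both lines, with log2 changes of -0.75 and -0.36 (adjusted p = 0.0202 and 0.00382). ZNHIT6 rose in LP-1 (0.43, adjusted p = 0.00859), NAF1 rose in U266 (0.25, adjusted p = 0.0161), and the assembly ATPase gene RUVBL2 fell in U266 (-0.59, adjusted p = 1.05e-05).

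**Figure D5:**
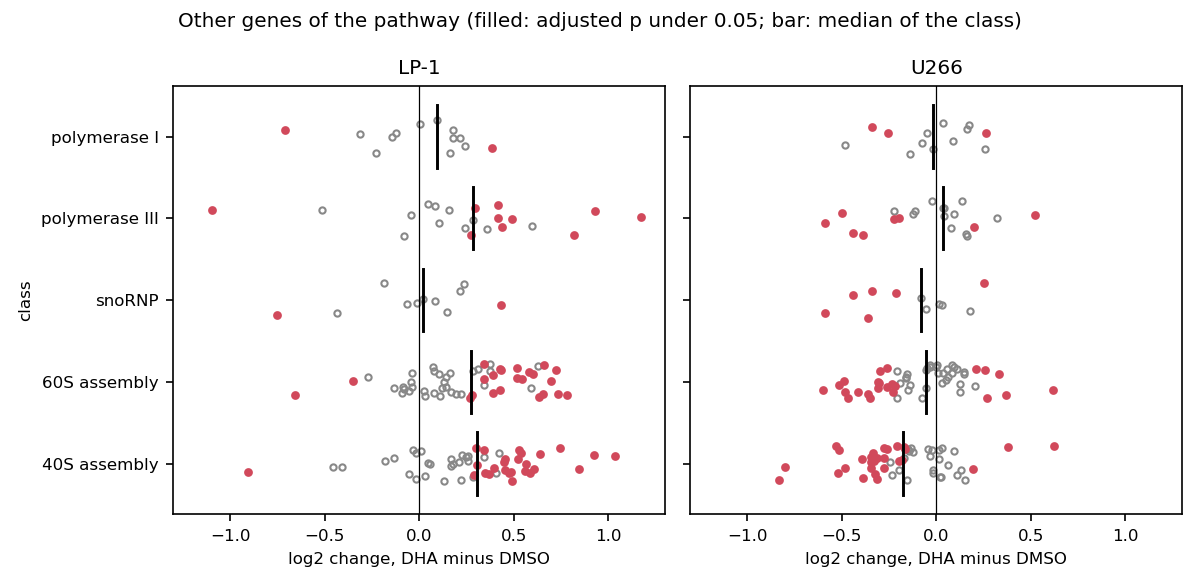
Log2 change with DHA in LP-1 (left) and U266 (right) for the other genes of the pathway, by class, with filled points for an adjusted p under 0.05 and a bar at the median of the class. The filled points of both assembly classes lie mostly above 0 in LP-1 and mostly below 0 in U266.

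The promoters of the members were searched for CACGTG, the E-box letters bound by MYC with MAX and by related factors. The reasons were that 22 of 29 members had changes of opposite sign in the lines, though only 7 were called in both, and that many are known MYC targets. RefSeq promoter windows (GRCh38.p14), 250 bases before to 50 after an annotated start, were at hand for 23 members, some with more than 1 start. The motif reads the same on both strands. It was in 11 of 30 member windows (36.7%), in 1071 of 10646 windows of genes tested in both lines (10.1%) and in 2548 of all 35116 windows (7.3%). As many members are known MYC targets, a higher share among them could be foreseen. The match and 10 bases on each side are shown for the 11 members that hold it, 5′ to 3′ on the gene's strand with CACGTG in capitals; the NOP2 stretch ends with its window.
MYBBP1A, chr17:4555342-4555367, - strand: ggccggagcaCACGTGtttcgtgttt
FBL, chr19:39846358-39846383, - strand: cgctcttttcCACGTGcgaaagcccc
RRP9, chr3:51941894-51941919, - strand: gttcagctgcCACGTGagttctgcgg
GAR1, chr4:109815783-109815808, + strand: gccagaggggCACGTGgcgccggtga
NOP2, chr12:6568242-6568266, - strand: gtccggattgCACGTGgagggccgc
PES1, chr22:30591882-30591907, - strand: cttggcagggCACGTGcgggaggaag
GNL3, chr3:52686028-52686053, + strand: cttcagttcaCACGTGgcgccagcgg
UTP20, chr12:101280085-101280110, + strand: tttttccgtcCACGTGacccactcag
BYSL, chr6:41921517-41921542, + strand: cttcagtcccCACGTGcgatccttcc
WDR43, chr2:28894660-28894685, + strand: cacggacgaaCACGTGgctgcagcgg
LYAR, chr4:4290070-4290095, - strand: gcggcgagtcCACGTGctccccgcgg
In 10 of the 11 the motif began within 36 bases of the start, and in LYAR it began 64 bases before it. The members that hold the motif had a median log2 change of 0.18 in LP-1 (11 members) and -0.32 in U266 (10 tested), and the 12 members with windows that lack it had 0.22 and -0.33. The median difference between the lines was 0.56 over the 10 tested members with the motif and 0.41 over the 12 without, which was not tested. Of the 7 members with opposite calls in the lines, POLR1A, POLR1B and NOP56 lack these letters in their windows, UTP20 holds them, and the others had no window. TCOF1, POLR3G, NOP58, NOLC1, BOP1, RRP1B and RRP12 were not searched.

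Likeness to the members was measured by Pearson correlation with their mean profile over 12 libraries, each gene centred within its line. This measure follows the DHA contrast in both lines, so genes near the top rise in LP-1 and fall in U266 by construction. Among the genes most alike outside the lists used here were SQLE, SGK1, PKM and CAPN2, with correlations of 0.976, 0.97, 0.965 and 0.962. SQLE, squalene epoxidase of cholesterol synthesis, was at 51.6 ± 3.35 and 71.1 ± 2.6 FPKM in LP-1 and at 29.7 ± 0.937 and 21.6 ± 1.08 FPKM in U266. Among the members themselves the correlation with the mean profile ran from -0.156 (FBL) to 0.98 (NOP56).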

How the data were processed

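Per the labels' protocols, an RNeasy kit was used for extraction and a SMARTER kit for mRNA libraries. The authors deposited FPKM values, with a separate table for each line. GRCm38 and mm10, both mouse builds, stand in the submitters' processing notes, although the genes in the tables are human. No source used here names the aligner, the counting tool or the annotation. Members were matched by Ensembl ID in LP-1 and by symbol in U266. GENCODE v29 (GRCh38) gave coordinates and exon lengths. Members and lists were chosen with earlier results of these data known. A gene entered the fit of its line where 3 or more of the 6 libraries reached 1 FPKM (12514 genes in LP-1, 10422 in U266). limma 3.58.1 (R 4.3.3; lmFit, then eBayes with a trend in the variance) was fitted to log2(FPKM + 1), 1 line at a time; tests were two-sided, p-values were adjusted by Benjamini-Hochberg across every gene of the fit, and 0.05 was the threshold. An interaction contrast over all 12 libraries and the 8868 genes present in both fits tested whether the lines differed. Scripts were tested on simulated data. Recovered reads lay within 0.1 of a whole number for 84.0 to 88.3% of values of up to 100 reads in LP-1 and for 93.8 to 94.5% in U266. The named genes are all 30 members and, in each class of other pathway genes and each line, the called gene with the largest rise and the one with the largest fall. Replicates were treated as unpaired. The alternatives changed the pseudocount (0.1), the filter (none, or 5 FPKM on average), the scaling (TMM-style with trims of 30% and 5%, or quantile), the exon length trend (removed by loess), the variance trend (none), the design (replicate block, or 12 libraries fitted together) and the libraries (each left out in turn). Leaving out LP-1 DMSO replicate 3 together with U266 DHA replicate 3 was chosen after seeing the data. Of the 5 genes most like the members, 1 is not reported here.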

Additional observations from a re-analysis of the deposited data

Results flagged for a closer look

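For 22 members the change with DHA differed between the lines in the limma interaction test. The log2 change in LP-1 minus that in U266 was, from the largest to the smallest, POLR1A 1.37, UTP20 1.23, RRP12 1.02, NOLC1 0.84, RRP1B 0.82, MYBBP1A 0.79, NOP58 0.72, NOP56 0.72, POLR1B 0.70, PES1 0.61, WDR43 0.61, NCL 0.57, RRP9 0.57, BYSL 0.56, POLR3G 0.52, GAR1 0.44, TCOF1 0.43, WDR74 0.40, LYAR 0.39, DKC1 0.38, GNL3 0.34 and NOC2L 0.29. In all 22 the change was higher in LP-1 than in U266, and 34.7% of all 8868 genes tested differed between the lines in either direction. The adjusted p of these members ran from 4.09e-05 for RRP12 to 0.0495 for GAR1. Each line has its own table, so the line and the way its table was made cannot be told apart. The groups of 3 libraries were too small to test for single libraries that stand apart.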

How the results depend on the processing

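Of the called members, all 12 in LP-1, 22 in U266 and 22 for the difference between the lines kept their direction in every alternative, and 4, 11 and 12 kept their call in every one. Medians ran from 0.18 to 0.31 in LP-1 (0.30 with the exon length trend removed), -0.31 to -0.25 in U266 and 0.44 to 0.59 for the difference. With no filter 7 members were called higher in LP-1. Quantile normalization called 2 members lower in LP-1, and the fit of all 12 libraries called 3 lower there and 11 lower in U266. Over all genes, LP-1 had 4512 calls of 31244 in either direction with no filter and 5459 of 12514 with quantile normalization. The fit of all 12 libraries had 4994 calls of 8868 in LP-1 and 2535 in U266. Leaving out 1 library gave 5 to 20 members higher and 0 to 2 lower in LP-1, 17 to 23 lower in U266 and 14 to 27 higher for the difference. Calls over all genes then ran from 2783 to 6745 in LP-1, 3417 to 4294 in U266 and 2322 to 4147 for the difference. With all libraries they were 5027, 4241 and 3077. With the replicate block 10 members were called higher in LP-1, 21 lower in U266 and 20 higher for the difference. Calls over all genes with the block were 4559, 3891 and 2873 in either direction. Same-numbered DMSO and DHA libraries share only a number (correlations of their deviations 0.0742, 0.0237 and 0.183 in LP-1 and -0.0386, -0.0832 and -0.0247 in U266). Signs turned only for changes that did not pass. With the exon length trend removed, LP-1 TCOF1 (-0.0904), LP-1 NOP16 (0.0175), LP-1 WDR12 (-0.108), U266 WDR74 (-0.00505) and line difference NHP2 (0.0885) turned. With TMM-style scaling, U266 WDR74 (-0.0196) turned. With quantile normalization, U266 WDR74 (-0.0241) and U266 WDR43 (0.0598) turned. Without LP-1 DMSO replicate 3 and U266 DHA replicate 3, line difference NHP2 (0.17) turned. With 1 library left out, values ran from -0.0867 to 0.215 for LP-1 NPM1 (turned without DMSO replicate 1 or 2 or DHA replicate 3), -0.107 to 0.335 for LP-1 MYBBP1A (turned without DMSO replicate 3), -0.249 to 0.0471 for LP-1 NOP16 (turned without DMSO replicate 3), -0.0497 to 0.0685 for U266 WDR74 (turned without DMSO replicate 1 or 3 or DHA replicate 1), -0.0230 to 0.106 for U266 LYAR (turned without DMSO replicate 3 or DHA replicate 2), -0.0930 to 0.0138 for U266 WDR43 (turned without DHA replicate 3) and -0.240 to 0.148 for line difference NHP2 (turned without LP-1 DMSO replicate 3). The cause was not tested. NOP2 gave no value with the 5 FPKM filter. With no filter, the median of all genes moved from 0.025 to 0.12 in U266 and from 0.017 to -0.12 for the difference.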
